A study of Homo sapiens with 3 samples.

Results

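The genes described are TWIST1 and 9 other genes of the epithelial-mesenchymal transition (EMT), 10 of the 58735 genes in the deposited tables. They were chosen by name, though with earlier results of these data known. They comprise 5 transcription factor genes (TWIST1, SNAI1, SNAI2, ZEB1 and ZEB2) and 5 genes of adhesion, matrix and filaments (CDH1, CDH2, VIM, FN1 and EPCAM). RNA was sequenced in 3 libraries of a human leukaemia line labelled KG1a: 1 control library of cells infected with virus that carried a control hairpin (shCtrl), and 2 libraries, called knockdown 1 and knockdown 2, of cells infected with virus against TRAF7 (shTRAF7), which encodes a RING-domain ubiquitin ligase. All 3 libraries share the lentiviral infection, total RNA input and batch label. The labels name neither the hairpin sequences nor the promoter that drives them, nor whether the knockdown libraries come from separate hairpins or cultures, so the p-values rest on a spread between samples that may be technical only. The series title sets TWIST1 downstream of TRAF7, and the comparison asks how the EMT genes differ when TRAF7 is depleted.

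EMT is the programme by which epithelial cells give up E-cadherin junctions and take on vimentin filaments, fibronectin matrix and N-cadherin. The SNAIL and ZEB zinc-finger factors bind E-box sequences and repress CDH1, while TWIST1, a basic helix-loop-helix factor, binds E-boxes as a dimer with E proteins; the ID proteins take up E proteins and so limit such dimers. Several of these factors also act in blood cells, where ZEB1 and ZEB2 take part in lineage differentiation and vimentin is a usual filament protein.

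The 3 libraries held 16014485, 16221721 and 16254461 reads assigned to genes (control, knockdown 1, knockdown 2; the order of all such values below). TRAF7 stood at 46.5, 15.6 and 18.3 FPKM, or 33.6% and 39.4% of the control in the knockdown libraries. FPKM here are reads scaled by exon length and by a median-of-ratios factor for each library, not by its total reads. The labelled cell type did not match its best known marker: CD34, the surface antigen by which KG1a is known, had 0, 1 and 10 reads, and CD7 had 9, 5 and 5. Of 7 markers of blood progenitor lines, 5 were measured, among them PTPRC (CD45) at 9.54, 5.60 and 6.53 FPKM, SPN at 46.2, 45.3 and 32.9, MYB at 35.3, 29.2 and 37.8 and LMO2 at 31.9, 32.3 and 35.3. Genes of the erythroid lineage, looked at after values were seen, were abundant, with GATA1 at 128.5, 104.5 and 115.6 FPKM and KLF1 at 56.5, 61.7 and 55.8. The globin genes HBA1 and HBG1 stood higher in both knockdown libraries, at 22.9, 90.2 and 74.8 FPKM and at 26.4, 58.9 and 53.3, and their part in the results below was not tested. The cells are therefore named here by their label only. Of 6 fibroblast markers 0 reached a mean of 1 FPKM, and their summed level was 0.708, 0.322 and 0.740 FPKM. Reads on 894 sense-intronic genes came to 553.2, 448.5 and 475.5 RPM (reads scaled to library size), highest in the control; the part of that difference in the results below was not tested. Bulk RNA cannot separate fewer cells with a transcript from less transcript per cell.

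Epithelial and mesenchymal genes were found side by side in these cells, and each set also had a member at or near 0. In order of mean FPKM over the 3 libraries, VIM stood first at 103.3, followed by EPCAM at 21.1, SNAI1 at 9.31, ZEB2 at 3.09, FN1 at 2.60, TWIST1 at 2.02 and ZEB1 at 1.20. CDH1 averaged 0.0069, and SNAI2 and CDH2 were listed at 0 in every library. The values of VIM, EPCAM and SNAI1 did not overlap over the libraries. FN1, at 0.902 to 4.69, overlapped in range with ZEB2, TWIST1 and ZEB1, so its place in the order is not fixed by these libraries. FPKM here divides by the summed exon length of all annotated transcripts, which is 25058 bases for ZEB2 and 17315 for FN1 against 2033 for TWIST1, so levels of genes with many alternative exons are set low relative to the others. Intervals given below are exact 95% Poisson intervals of the reads, recovered from the FPKM, and cover counting error only.

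**Figure D1:**
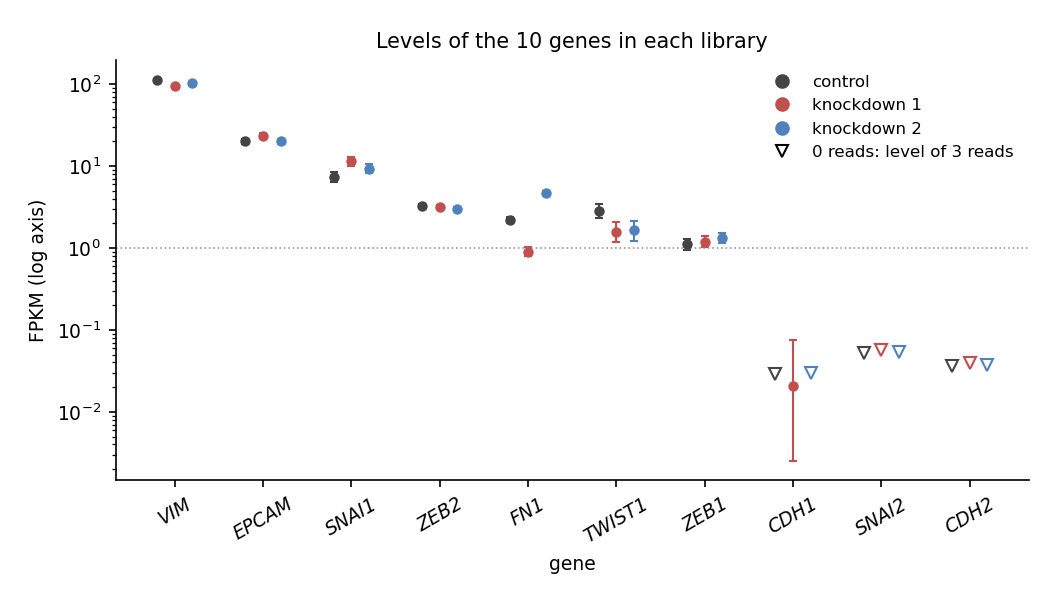
FPKM of the 10 genes in the control and both knockdown libraries on a log axis, ordered by mean. Points are single libraries, bars are 95% Poisson intervals, open triangles mark 0 reads and are drawn at the level that 3 reads would give, and the dotted line is 1 FPKM. VIM lies near 100 in every library, TWIST1 lies lower in both knockdown libraries, FN1 lies on either side of the control, and CDH1, SNAI2 and CDH2 lie at or near 0.

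Of the 10 genes, 7 had a mean of at least 1 FPKM and entered the test over all genes. SNAI1, ZEB1 and EPCAM were higher than the control in both knockdown libraries, TWIST1, ZEB2 and VIM were lower in both, and FN1 was lower in one and higher in the other. Over all 12640 genes tested, 42.5% were higher in both, 30.8% lower in both and 26.7% split, so counts of 3, 3 and 1 lie near those shares. The median difference of the 7 genes was −0.03 in knockdown 1 and 0.00 in knockdown 2 on the log2(FPKM + 1) scale, against 0.06 and 0.03 over all genes tested. By limma with Benjamini-Hochberg adjustment over all genes, 0 of the 7 passed an adjusted p of 0.05, where 0 of 12640 genes (0%) did. At an unadjusted p under 0.05 there were 1 of the 7, TWIST1, and 1161 of all genes (9.19%). The test has 1 residual degree of freedom, from the pair of knockdown libraries, and assumes that the lone control varies as they do. By limma-voom on the recovered reads, which called 130 of 15034 genes (0.865%), 0 of the 7 passed, and again TWIST1 alone of the 7 had an unadjusted p under 0.05, against 1822 of all genes (12.1%).

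**Figure D2:**
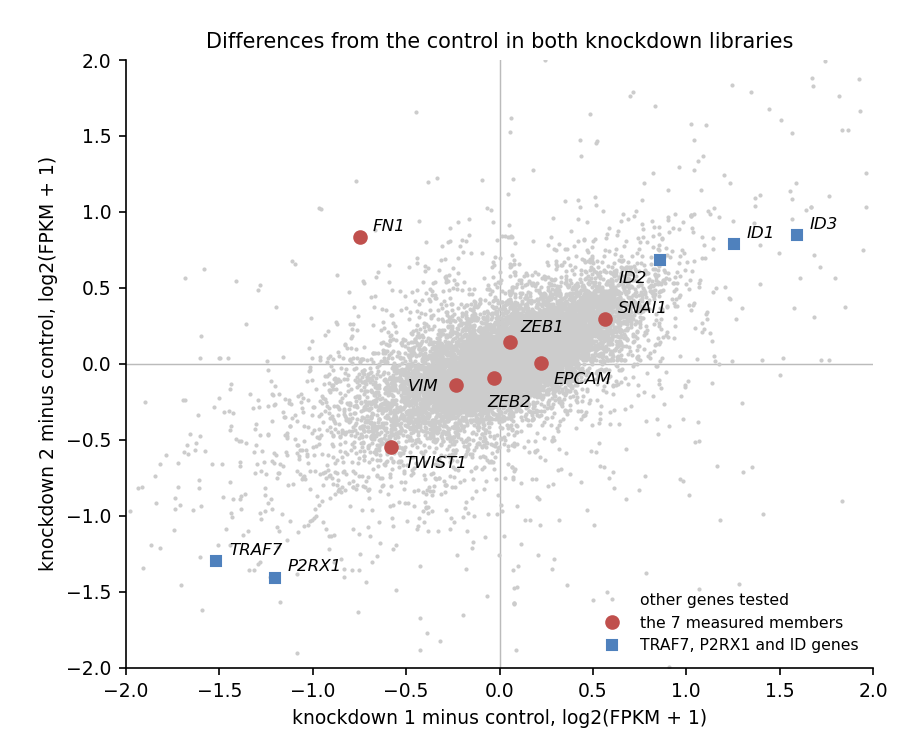
Difference from the control in knockdown 1 (x axis) against knockdown 2 (y axis), each as log2(FPKM + 1), for the genes tested; both axes share the control library. The plot holds 12585 genes and 55 more lie outside its axes; circles are the 7 measured EMT genes, squares are TRAF7, P2RX1 and the ID genes, and grey points are all others. FN1 lies in the upper left, away from the diagonal band, and TWIST1 in the lower left.

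TWIST1, which gives the mesoderm and EMT factor, was at 55.3% of the control in knockdown 1 (95% interval 38.6 to 78.6) and at 57.2% in knockdown 2 (40.3 to 80.6). The gene (ENSG00000122691) spans chr7:19020991-19117672 on the minus strand (GRCh38); its protein-coding transcript covers the 2205 bases at chr7:19115468-19117672, and the longer span comes from a transcript annotated as subject to nonsense-mediated decay. Control cells gave 2.86 FPKM (95% interval 2.32 to 3.48) from 98 reads, knockdown 1 gave 1.58 (1.17 to 2.08) from 50 and knockdown 2 gave 1.63 (1.23 to 2.13) from 54. The knockdown libraries were alike, with a ratio of 1.03 between them (0.690 to 1.55), and both lay below the control beyond counting error. The fitted log2 fold change was −0.56 ± 0.22 (SE; limma adjusted p = 0.528), and −0.82 ± 0.40 by limma-voom (adjusted p = 0.406). Of all genes tested, 4.55% had a fitted change at or below that of TWIST1, and 273 (2.16%) were lower in each knockdown library by at least as much as TWIST1. Fewer than 100 reads per library stand behind these values, and the adjusted p lay between 0.261 and 0.649 under the alternatives fitted, with no change of sign.

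Only an antisense gene and HDAC9 were looked at beside TWIST1. Both were lower than the control in both knockdown libraries, the antisense one on few reads, as were 30.8% of all genes tested. Other neighbours were not looked at. The antisense transcript that overlaps TWIST1, AC003986.2, had 7, 2 and 1 reads. HDAC9, a neighbouring protein-coding gene on the opposite strand (chr7:18086949-19002416), gives a class IIa histone deacetylase. It was at 4.95, 2.35 and 4.16 FPKM, with its lowest value in knockdown 1. Strand-specific counting is stated in none of the sources used here.

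The protein-coding genes whose pair of differences lay closest to that of TWIST1 over the 3 libraries were FADS3, AMHR2, ANO9, OPTN and ALDH2, with Euclidean distances of 0.0044, 0.0120, 0.0159, 0.0323 and 0.0384 on the log2(FPKM + 1) scale. FADS3, of the fatty acid desaturase family, was at 19.5, 12.6 and 13.0 FPKM. AMHR2, the receptor of anti-Müllerian hormone, was at 2.54, 1.35 and 1.42. OPTN, the autophagy receptor optineurin, was at 7.05, 4.39 and 4.38, and ALDH2, the mitochondrial aldehyde dehydrogenase, at 7.18, 4.52 and 4.45. ANO9, of the anoctamin family, was at 10.1, 6.47 and 6.60. Within a distance of 0.1 lay 30 of 9896 protein-coding genes. Because this scale understates the change of low genes such as TWIST1, a small distance does not mean an equal ratio to the control.

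SNAI1, the SNAIL repressor, was higher in both knockdown libraries. Its FPKM was the highest of the 5 transcription factors, an order that for ZEB2 rests on the summed exon length used. The gene (ENSG00000124216, chr20:49982999-49988886, plus strand) gave 7.34 FPKM (6.38 to 8.41) from 209 control reads, 11.4 (10.1 to 12.7) from 298 in knockdown 1 and 9.23 (8.13 to 10.4) from 253 in knockdown 2. The ratios to the control were 1.55 (1.29 to 1.85) and 1.26 (1.04 to 1.52). Knockdown 1 lay clear of the control by counting error, while the single-library intervals of knockdown 2 and the control overlapped. The fit gave a log2 fold change of 0.43 ± 0.20 (SE; limma adjusted p = 0.574; limma-voom adjusted p = 0.519). SNAI1 and TWIST1 thus lay on opposite sides of the control in both libraries. SNAI2, which gives the SLUG repressor (chr8:48917604-48921740), had 0 reads in each library, where 3 reads would be 0.0524, 0.0568 and 0.0544 FPKM.

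ZEB1 and ZEB2, the paired zinc-finger and homeodomain repressors, had fitted changes smaller than their standard errors. ZEB1 (ENSG00000148516, chr10:31318495-31529814, plus strand) was at 1.10, 1.19 and 1.32 FPKM, from 161, 160 and 186 reads. Its ratios to the control were 1.08 (0.861 to 1.35) and 1.20 (0.966 to 1.49), and the fitted log2 fold change was 0.10 ± 0.26 (SE; limma adjusted p = 0.931). ZEB2 (ENSG00000169554, chr2:144364364-144524583, minus strand) was at 3.21, 3.12 and 2.95 FPKM, from 1358, 1216 and 1201 reads. Its ratios were 0.971 (0.898 to 1.05) and 0.918 (0.849 to 0.993), and the fit gave −0.06 ± 0.19 (SE; limma adjusted p = 0.945). All 3 libraries of ZEB2 lay above all 3 of ZEB1, with the exon lengths named above setting ZEB2 low. The overlapping antisense gene ZEB1-AS1 was at 1.50, 0.990 and 2.20 FPKM, close to ZEB1 itself, and ZEB2-AS1 had 8, 9 and 1 reads.

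In epithelial cells the ZEB genes and the miR-200 family repress each other, and the sequences through which this works are shown because ZEB1 and ZEB2 carry more of them than the other 8 genes. The 5 mature miRNAs, from RefSeq (GRCh38.p14), are printed 5′ to 3′ with the seed, bases 2 to 8, in capitals, and fall into 2 seed groups, 3 with AAUACUG and 2 with AACACUG.
hsa-miR-200b-3p: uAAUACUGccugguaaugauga
hsa-miR-200c-3p: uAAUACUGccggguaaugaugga
hsa-miR-429: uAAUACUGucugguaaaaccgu
hsa-miR-141-3p: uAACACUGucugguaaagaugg
hsa-miR-200a-3p: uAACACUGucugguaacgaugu
One match to the first seed is shown from the 3′ untranslated region of each ZEB gene, with the letters that pair with the seed in capitals, from GENCODE transcripts on GRCh38: ZEB1 at chr10:31527622-31527645 (plus strand) and ZEB2 at chr2:144389047-144389070 (minus strand).
ZEB1 site: ttttatcttatCAGTATTatcact
ZEB2 site: ctaccatacatCAGTATTtttatt
In the longest protein-coding transcript of each gene, the 3′ untranslated region of ZEB1 held 6 matches to the first seed and 3 to the second, and that of ZEB2 held 5 and 4. FN1 held 2 and 0 and SNAI2 held 1 and 0, while TWIST1, SNAI1, CDH1, CDH2, VIM and EPCAM held 0 of either. Of 19702 such transcripts, 15.5% held at least 1 match to the first seed and 0.0355% held 5 or more; for the second seed at least 1 match was found in 17.6%. The genes MIR200A, MIR200B, MIR200C, MIR141, MIR429 and MIR200CHG, looked at after values were seen, had 0 reads in every library. Mature miRNAs were not measured in these libraries, and a seed match is a description of letters only.

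The ZEB1 start region also held the E-box that SNAIL and ZEB factors bind, and its window is shown as the one among the promoters of these genes with the most matches. RefSeq promoter windows (250 bases before to 50 after a start, GRCh38.p14) were matched for 5 of the 10 genes, ZEB1, ZEB2, CDH2, VIM and FN1. Matches to CAGGTG on either strand are in capitals in the window chr10:31318966-31319265 (plus strand).
ZEB1 promoter: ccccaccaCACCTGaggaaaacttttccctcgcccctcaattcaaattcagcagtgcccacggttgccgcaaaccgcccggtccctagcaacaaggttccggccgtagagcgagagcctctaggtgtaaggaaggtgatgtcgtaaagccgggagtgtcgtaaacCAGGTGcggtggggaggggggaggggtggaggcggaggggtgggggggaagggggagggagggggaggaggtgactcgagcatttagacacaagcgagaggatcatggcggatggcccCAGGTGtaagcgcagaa
It is 1 of 7 windows for ZEB1, picked for its 3 matches; another held 1 and the other 5 held 0. Of 35116 windows, 0.635% held 3 or more and 20.6% at least 1, shares that are per window and not per gene. The single windows of ZEB2, VIM and FN1 held 0.

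The cadherins that define the 2 ends of EMT were close to absent. CDH1, E-cadherin (ENSG00000039068, chr16:68737225-68835548, plus strand), had 0, 2 and 0 reads, where 3 reads would be 0.0288, 0.0312 and 0.0299 FPKM. CDH2, N-cadherin (ENSG00000170558, chr18:27950966-28177446, minus strand), had 0 reads in each library, where 3 reads would be 0.0359, 0.0389 and 0.0373 FPKM. No fold was computed for either. A switch between these cadherins was not detectable at this depth in either direction.

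EPCAM, the epithelial adhesion molecule, was present at levels well above CDH1. The gene (ENSG00000119888, chr2:47345158-47387601, plus strand) gave 19.96 FPKM (18.6 to 21.4) from 849 control reads, 23.5 (22.0 to 25.1) from 921 in knockdown 1 and 19.99 (18.6 to 21.4) from 819 in knockdown 2. Knockdown 2 equalled the control within counting error, with a ratio of 1.00 (0.909 to 1.10), and knockdown 1 lay at 1.18 (1.07 to 1.29). The fitted log2 fold change was 0.11 ± 0.19 (SE; limma adjusted p = 0.887), and it turned to −0.01 under quantile normalization.

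VIM, the type III filament protein of mesenchymal and blood cells, was the most abundant of the 10 genes and was slightly lower in both knockdown libraries. The gene (ENSG00000026025, chr10:17228259-17237593, plus strand) gave 112.4 FPKM (110.2 to 114.7) from 9791 control reads, 95.6 (93.4 to 97.7) from 7671 in knockdown 1 and 102.0 (99.8 to 104.1) from 8552 in knockdown 2. These are 85.0% (82.5 to 87.6) and 90.7% (88.1 to 93.4) of the control. The intervals of the 3 libraries did not overlap, so the knockdown libraries also differed from each other beyond counting error. The fit gave −0.19 ± 0.15 (SE; limma adjusted p = 0.728), and −0.43 under quantile normalization and −0.29 with scaling to all assigned reads, neither past the threshold. The antisense gene VIM-AS1, which overlaps the start of VIM, was at 8.30, 4.32 and 6.11 FPKM, in the same order of libraries as VIM.

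FN1, the fibronectin gene of the extracellular matrix, differed most of the 10 genes between the knockdown libraries. The gene (ENSG00000115414, chr2:215360440-215436172, minus strand, 27 annotated transcripts) gave 2.20 FPKM (2.03 to 2.37) from 642 control reads, 0.902 (0.792 to 1.02) from 243 in knockdown 1 and 4.69 (4.44 to 4.95) from 1321 in knockdown 2. Knockdown 1 was thus at 41.1% of the control (35.3 to 47.7) and knockdown 2 at 213.6% (194.3 to 235.1). Between the knockdown libraries the ratio was 5.20 (4.53 to 5.99). Of all genes tested, 5.16% were at least 2-fold apart between those libraries and 0.997%, 126 genes, were at least as far apart as FN1. The fitted log2 fold change was 0.04 ± 0.61 (SE; limma adjusted p = 0.989), with differences of −0.75 and 0.83 in the single libraries. It has no stable sign: it was −0.02 with scaling to all assigned reads, −0.07 with a pseudocount of 0.1 and −0.08 by limma-voom.

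The start region of FN1 is shown because its level varied most. In the RefSeq window chr2:215436019-215436318 (minus strand, GRCh38.p14), the match to TGACGTCA, the cAMP response element, is in capitals; it reads the same on both strands.
FN1 promoter: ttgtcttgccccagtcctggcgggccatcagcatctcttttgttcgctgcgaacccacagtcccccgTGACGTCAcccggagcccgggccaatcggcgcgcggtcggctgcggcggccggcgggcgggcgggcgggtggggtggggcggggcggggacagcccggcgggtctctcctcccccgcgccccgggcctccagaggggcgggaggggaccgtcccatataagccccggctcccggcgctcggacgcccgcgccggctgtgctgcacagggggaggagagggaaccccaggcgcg
The element was in 1.85% of 35116 windows and in 0 of the windows of ZEB1, ZEB2, CDH2 and VIM.

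Among the genes listed as partners and antagonists of TWIST1, the ID genes, antagonists that give dominant-negative helix-loop-helix proteins, were higher in both knockdown libraries where measured. ID1 was at 12.4, 31.1 and 22.2 FPKM (259, 597 and 445 reads), or 2.50 (2.16 to 2.90) and 1.78 (1.53 to 2.09) times the control. ID3 was at 6.76, 22.4 and 12.9 FPKM (205, 627 and 378 reads), or 3.32 (2.83 to 3.90) and 1.91 (1.61 to 2.28) times the control. ID2 was at 3.52, 7.20 and 6.25 FPKM (131, 247 and 224 reads), or 2.05 (1.65 to 2.55) and 1.78 (1.43 to 2.22) times the control. In each of the 3 genes knockdown 1 was the highest library and the control the lowest.

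ID1 and ID3 rose by limma-voom over all genes (log2 fold changes 1.08 ± 0.26 and 1.33 ± 0.30, SE; adjusted p = 0.0342 and 0.0163), a call that 0.206% of all genes got in that direction. ID2 did not pass (0.93; limma-voom adjusted p = 0.175). By limma on FPKM the log2 fold changes were 1.02 ± 0.24, 0.77 ± 0.18 and 1.22 ± 0.32 for ID1, ID2 and ID3, and 0 of the 3 passed (adjusted p = 0.403, 0.403 and 0.443). All 3 had an unadjusted p under 0.05 by both tools.

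The E proteins with which TWIST1 pairs did not move together. TCF3 (E2A) was at 30.8, 46.4 and 35.1 FPKM, higher in both knockdown libraries (log2 fold change 0.38 ± 0.22, SE; limma adjusted p = 0.645). TCF12 (HEB) was at 11.3, 10.1 and 10.4 FPKM, and TCF4 (E2-2) at 1.58, 1.58 and 1.26. ID4, TWIST2, HAND1 and HAND2 had 0 reads in every library, so that TWIST1 was the only one of the 4 listed TWIST and HAND genes with reads. Of the 10 genes listed as partners, antagonists and relatives, 6 were measured, 4 of them higher in both libraries, 1 lower and 1 split. Over all lists together, without the members, TRAF7 and P2RX1, 71 of 129 genes were measured. Of these, 30 were higher in both, 21 lower and 20 split, near the 42.5%, 30.8% and 26.7% of all genes tested. An unadjusted p under 0.05 was found for 7 of 71 by limma and 12 of 85 by limma-voom. These also lie near the shares over all genes (9.19% and 12.1%), so the counts per list are descriptions only.

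**Figure D3:**
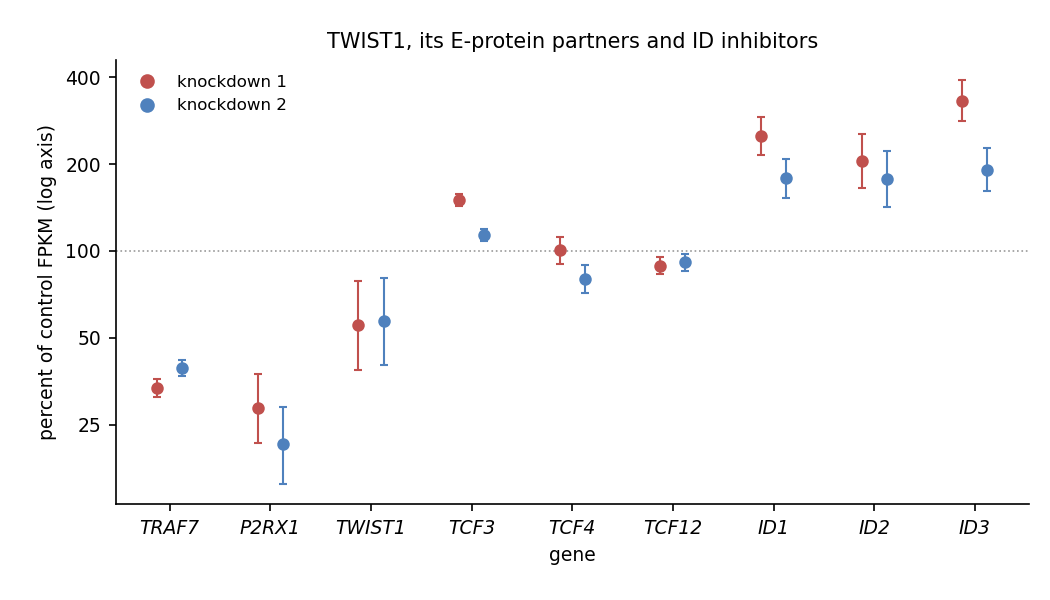
FPKM of each knockdown library as a percentage of the control, on a log axis, for TRAF7, P2RX1, TWIST1, the E proteins and the ID genes. Points are single libraries and bars are 95% intervals for counting error; the dotted line is 100%. TWIST1 lies at 55.3% and 57.2%, and ID1, ID2 and ID3 lie above 150% in both.

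Most other factors known to drive or oppose EMT were not measured in these cells. Of 9 further EMT factors, 5 had 0 reads in every library and only SNAI3, a SNAIL relative, reached a mean of 1 FPKM, at 1.33, 1.15 and 0.959. HMGA2, a chromatin protein of embryonic tissue, had 45, 7 and 27 reads. Of 8 regulators of epithelial identity, 2 were measured: GRHL1 at 2.19, 1.37 and 1.59 FPKM and KLF4 at 1.55, 1.11 and 1.53. Both were lower in both knockdown libraries, KLF4 in knockdown 2 only within counting error (ratio 0.984, 0.731 to 1.32). In these lists 0 genes passed by limma (GRHL1 adjusted p = 0.672) or limma-voom, and 0 and 2 (HMGA2 and GRHL1) had an unadjusted p under 0.05.

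The chromatin repressors that SNAIL, ZEB and TWIST1 recruit were expressed nearly in full. Of 14 listed, 11 were measured, 7 higher in both libraries, 1 lower and 3 split, with a median log2 fold change of 0.13 against 0.04 over all genes. The Polycomb subunit gene EED was at 5.31, 8.32 and 7.69 FPKM (0.51 ± 0.18, SE; limma adjusted p = 0.495). Its partners SUZ12 and EZH2 were at 10.9, 14.5 and 12.2 and at 39.2, 45.6 and 43.6 FPKM, and the scaffold SIN3A at 3.82, 5.07 and 4.19. Of 6 genes that control the turnover of the SNAIL and TWIST1 proteins, 2 were higher in both libraries, 1 lower and 3 split. They include the ubiquitin ligase genes FBXO45 at 6.21, 8.31 and 6.82 FPKM and BTRC at 5.29, 4.72 and 6.48, and the kinase genes GSK3B at 4.30, 3.80 and 3.82 and PAK1 at 2.02, 1.65 and 3.40. By limma and by limma-voom 0 of either list passed; EED alone had an unadjusted p under 0.05.

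The cytoplasmic partners of cadherins were present although CDH1 and CDH2 were not. The catenin genes CTNNB1 (12.0, 14.5 and 12.5 FPKM), JUP (57.8, 55.6 and 52.9), CTNND1 (15.0, 16.2 and 14.6) and CTNNA1 (22.4, 21.8 and 22.6) were all measured, while the cadherins CDH3, CDH5 and CDH11 were not. Of 13 genes of epithelial junctions and keratins, 6 were measured, 2 higher in both libraries, 2 lower and 2 split. The keratin genes of simple epithelia were abundant in every library: KRT8 at 49.0, 68.9 and 60.9 FPKM (0.39 ± 0.17, SE; limma adjusted p = 0.560), KRT18 at 62.0, 69.5 and 63.1, and KRT19 at 36.2, 21.2 and 33.6. The tight junction gene CLDN7 was at 1.57, 1.24 and 1.21. Summed over EPCAM, CDH1, KRT8, KRT18, KRT19 and CLDN4, the epithelial markers came to 167.3, 183.2 and 177.7 FPKM, nearly all of it from the keratins and EPCAM, with CLDN4 and CDH1 at or near 0.

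Few genes of the mesenchymal matrix were measured, 4 of 15, and 3 of these split between the knockdown libraries. Over all genes tested 26.7% split. SPARC, a matrix glycoprotein, was at 3.98, 3.31 and 5.09 FPKM and S100A4, a calcium-binding protein of motile cells, at 4.22, 2.51 and 5.52; both were lower in knockdown 1 and higher in knockdown 2. TIMP1, the metalloproteinase inhibitor, ran the other way at 96.3, 107.2 and 82.6. TAGLN, an actin-binding protein, was lower in both at 2.27, 1.51 and 1.76. COL1A1, below the filter, had 87, 39 and 99 reads. Of 7 fibronectin and matrix receptors 4 were measured: the integrin genes ITGA5 (21.7, 19.9 and 20.8 FPKM), ITGB1 (34.2, 31.6 and 36.7) and ITGAV (5.57, 4.84 and 4.85) and the syndecan gene SDC4 (4.44, 5.29 and 6.17). CD44, the hyaluronan receptor, had 0, 2 and 7 reads. In the catenin, junction, matrix and receptor lists 0 genes passed by limma or limma-voom, and 0 and 1 (KRT8) had an unadjusted p under 0.05.

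Beside VIM, most other measured filament genes had values above the control. Of 5 measured lamin, filament and linker genes 4 were higher in both knockdown libraries and 1 lower, where 42.5% and 30.8% of all genes tested were. The nuclear lamin genes LMNB1 and LMNB2 were at 57.1, 77.0 and 72.1 and at 56.8, 78.7 and 65.1 FPKM, and the muscle filament gene DES at 2.88, 3.57 and 3.27. The lower one was PLEC, whose product plectin links vimentin to other structures, at 25.3, 22.0 and 17.0 FPKM. By limma and limma-voom 0 passed, and 0 and 1 (PLEC) had an unadjusted p under 0.05.

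Transcripts of TGF-beta signalling, the classical inducer of EMT, were mostly measured, but its type II receptor was nearly absent. TGFBR2 had 0, 0 and 2 reads, against 12.2, 10.6 and 10.3 FPKM for TGFBR1 and 6.82, 8.45 and 7.88 for the coreceptor TGFBR3. Of 15 pathway genes 11 were measured, 5 higher in both libraries, 4 lower and 2 split, with a median log2 fold change of 0.05. BAMBI, a pseudoreceptor that damps the pathway, was at 6.65, 9.36 and 10.6 FPKM (0.51 ± 0.18, SE; limma adjusted p = 0.505), and SKIL, a nuclear corepressor of SMADs, at 2.96, 1.89 and 2.20. The count past the threshold was 0 by limma and by limma-voom, with 1 (BAMBI) and 2 (BAMBI and SKIL) at an unadjusted p under 0.05.

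Of 6 factors reported to act on the TWIST1 gene, 5 were measured, 3 higher in both libraries, 1 lower and 1 split. YBX1, a cold-shock domain protein that binds DNA and RNA, was at 681.1, 959.1 and 866.3 FPKM (0.42 ± 0.10, SE; limma adjusted p = 0.407), opposite in direction to TWIST1. STAT3 was at 23.0, 28.9 and 26.6 FPKM, RELA at 16.3, 18.7 and 16.9 and NFKB1 at 6.59, 6.18 and 6.40. Of 5 genes listed as TWIST1 targets, 3 were measured: P2RX1, BMI1 and AKT2. P2RX1 was also listed as a gene of the series title, so its choice was not independent of this series. It was at 3.83, 1.10 and 0.821 FPKM. Its fall passed by limma-voom (adjusted p = 0.000614, a call that 0.659% of all genes got in that direction) and not by limma (adjusted p = 0.403). BMI1 was at 14.2, 16.3 and 14.7 FPKM and AKT2 at 11.3, 14.1 and 11.2. Of these 3 genes, 1 was higher in both libraries (BMI1, a Polycomb gene), 1 lower (P2RX1) and 1 split (AKT2). A link of their values to TWIST1 was not tested. By limma and limma-voom 0 of the factors passed, with YBX1 at an unadjusted p under 0.05 by both.

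**Figure D4:**
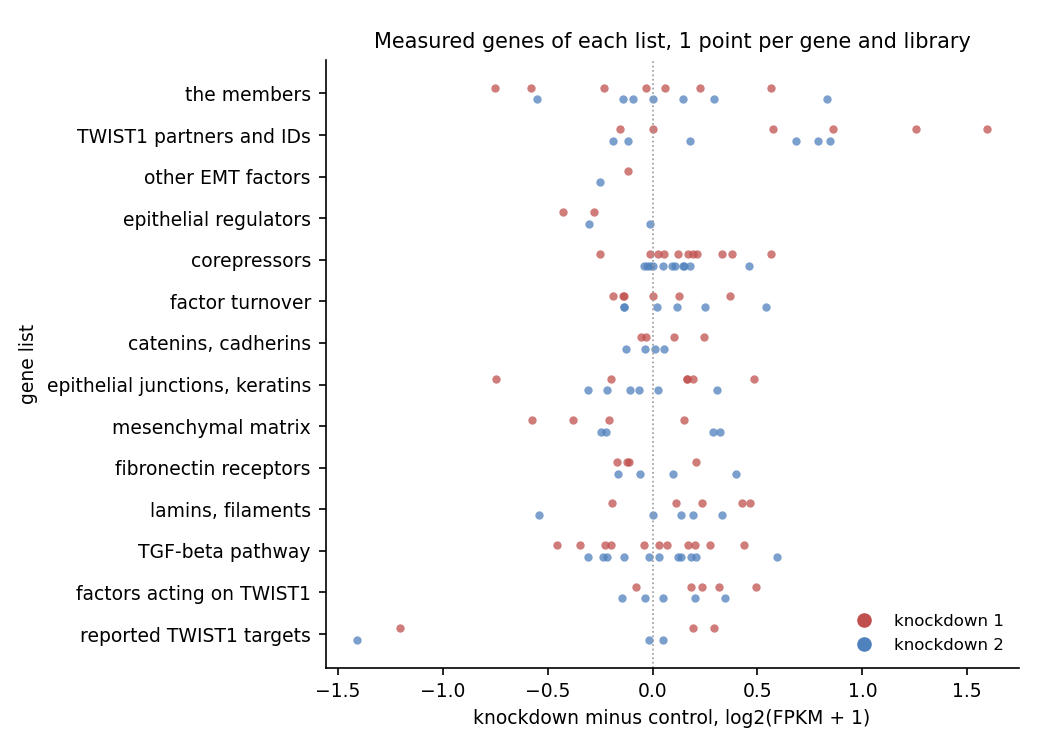
Difference from the control as log2(FPKM + 1) for each measured gene of the EMT set and of 13 related gene lists, 1 point per gene and knockdown library; the dotted line is no difference. The ID genes lie to the right in both libraries, P2RX1 to the left, and most other points lie between −0.5 and 0.5.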

How the data were processed

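The authors deposited 1 FPKM value per gene and library; per the submitters' processing notes they used BWA, Bowtie and hg19, whose roles, like the counting tool, are not given in the sources used here. All 58735 identifiers matched GENCODE release 29 (GRCh38), and FPKM times its exon length gave whole reads for 100% of values (within 0.05). The deposited values already carry median-of-ratios scaling (factors 1.0446, 0.9629 and 1.0061). The main test was limma 3.58.1 (R 4.3.3) on log2(FPKM + 1) with an intensity trend, two-sided, over genes averaging 1 FPKM or more, Benjamini-Hochberg over all genes; this scale understates the change of low genes. limma-voom used recovered reads (mean of at least 10). Both were tested on simulated data in which the control was given the spread of the knockdown libraries. A control that varies otherwise was thus not covered. Alternatives were other scalings, filters, pseudocounts (0.1, 0.5 and 5), no trend, and each knockdown library alone. Named genes are the 10 members, TRAF7, P2RX1, up to 4 genes with the lowest p in each of 17 other lists, any that passed, and 5 genes nearest TWIST1; others are named after their values were seen. The members and lists were chosen with earlier results of these data known. Intervals are exact 95% and floors are 3 reads.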

Additional observations from a re-analysis of the deposited data

How the results depend on the processing

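Of 73 fold changes of the measured EMT genes under 11 fitted alternatives, 69 kept their direction and their side of the threshold. The count of all genes past an adjusted p of 0.05, 0 in the limma test, was 1465 with no filter on low values (where limma warned that most residual variances were 0, so its p-values are not reliable), 3 at a mean of at least 5 FPKM, 13 among protein-coding genes and 130 by limma-voom. No member was among them. With a mean of at least 5 FPKM only VIM, SNAI1 and EPCAM were tested, and 1 in place of 3 was lower in both libraries; with 1 knockdown library left out the count was 3 to 4. The fold change of TWIST1 with 1 library left out was −0.58 to −0.55, and −0.82 to −0.25 under the fitted alternatives. That of FN1 reversed to −0.025 with scaling to all assigned reads, −0.068 with a pseudocount of 0.1, −0.084 by limma-voom and −0.75 without knockdown 2 (0.83 without knockdown 1); that of EPCAM reversed to −0.0075 under quantile normalization. The cause was not tested. Among protein-coding genes TRAF7 and P2RX1 passed (limma adjusted p = 0.0294 for both); ID1 and ID3 passed only by limma-voom and with no filter. A single control library limits every comparison, and TWIST1 rests on 50 to 98 reads. No paired analysis was possible because the groups share fewer than 2 replicate numbers.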
